A study of Mus musculus with 2 samples.

Results

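Pericytes and vascular smooth muscle cells, together called mural cells, were taken from single-cell RNA libraries of healed large wounds by a gate on their own marker genes. A cell passed when it held at least 5 unique molecular identifiers (UMIs, counted RNA molecules) of Rgs5, at least 2 summed over Notch3, Kcnj8, Abcc9 and Myh11, fewer than 2 summed over the endothelial genes Pecam1 and Cdh5, and 0 of the leukocyte gene Ptprc. The gate held 1035 of 24649 cells that passed the cell filter (500 or more UMIs, 300 or more genes, no more than 15% mitochondrial UMIs), with 558 of 11443 in WT_LW and 477 of 13206 in TLR9agonist_LW. The cells were thus chosen by their counts of Rgs5 and the other gate genes, so the share of cells and the levels of the gate genes are a description.

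Both groups were male wild-type C57BL/6J mice aged 6 to 8 weeks with a circular full-thickness wound of the dorsal skin, 1.8 cm across. WT_LW wounds received PBS according to the labels and the methods, although a legend of the study names a control oligonucleotide, and TLR9agonist_LW wounds received 4 μg of the CpG oligonucleotide ODN2395 each time, in both groups on days 0, 3 and 6. A 5 mm punch of the wound centre was taken 2 days after scab detachment, epidermis and dermis were separated and dissociated with enzymes, and the unsorted cells were recombined. Cells of several mice (6 per group in the results text, 5 in the methods) were pooled into 1 library per group, so no test between the groups was possible, the mice and the preparation cannot be told apart from the treatment, and every interval below covers counting error only.

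Mural cells wrap the endothelial tube from outside. Pericytes sit within the basement membrane of capillaries and are held there by platelet-derived growth factor B from the endothelium acting on Pdgfrb, while smooth muscle cells circle arterioles and venules, contract through smooth muscle actin and myosin, and keep their state through Notch3 and endothelial Jag1. In inflamed skin, pericytes are also known to release chemokines and to guide leukocytes that leave the vessel.

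The deposited cells held 99374045 UMIs in WT_LW and 132339022 in TLR9agonist_LW, and the mural-gated cells held 4909531 and 4755203. The median mural-gated cell held 7808.5 UMIs in WT_LW and 8399 in TLR9agonist_LW, so the median depth per cell was close in both libraries. The lower quartile was 5000.5 and 6214 UMIs. The median number of genes per cell was 2851 in WT_LW and 2486 in TLR9agonist_LW, so it was lower where the depth was higher. The libraries shared 47 barcodes among the deposited cells and 0 among the mural-gated cells. No doublets were removed, and the Scrublet score marked 33 of the mural-gated cells in WT_LW (5.91%) and 45 in TLR9agonist_LW (9.43%). Levels are given as CPM, in which each gene's UMIs are divided by the summed UMIs of the gated cells and scaled to 1000000. As background of free RNA, the level is also given in T cell-gated cells (at least 2 UMIs of Cd3e and Cd3d, 2959 and 3074 cells, median 4505 and 4815 UMIs), which lack mural genes. Where T cells express a gene themselves, this level is not a measure of free RNA alone.

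Markers that the gate did not use were present in the gated cells. Higd1b, a gene typical of pericytes, was at 629.6 and 261 CPM in WT_LW and TLR9agonist_LW, against 3 and 0.727 CPM in T cell-gated cells. Pdgfrb, the receptor that anchors pericytes, was at 712 and 367 CPM against 10.5 and 17.5 CPM, and Acta2, smooth muscle actin, was at 2706 and 1606 CPM against 21.9 and 17.8 CPM. All 3 genes lay far above the free RNA level in both libraries. Of the gate genes, Rgs5, a regulator of G protein signalling, was at 10479 and 6492 CPM, Myh11, the smooth muscle myosin heavy chain, at 451 and 312 CPM, and Notch3 at 690.3 and 448 CPM. Kcnj8 and Abcc9, the pore and the regulatory subunit of the ATP-sensitive potassium channel of pericytes, were at 270.1 and 137 CPM and at 509.8 and 262 CPM.

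Few cells lay at the Rgs5 edge of the gate. Just inside it, with 5 to 9 UMIs of Rgs5, were 31 cells in WT_LW and 10 in TLR9agonist_LW, with Higd1b at 187 and 146 CPM. Just outside, with 3 to 4 UMIs of Rgs5 and the other conditions met, were 19 and 7 cells, with Higd1b at 38.1 and 63.6 CPM. Cells with at least 5 UMIs of Myh11 and fewer than 5 of Rgs5, which the gate would miss, numbered 1 in WT_LW and 4 in TLR9agonist_LW. The other conditions left out more cells. At least 5 UMIs of Rgs5 were held by 848 cells of WT_LW and 632 of TLR9agonist_LW. Of these, 96 and 34 had fewer than 2 UMIs summed over Notch3, Kcnj8, Abcc9 and Myh11. A further 194 and 121 were left out by Pecam1 and Cdh5 or by Ptprc.

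Mural-gated cells made up 4.88% of the cells of WT_LW (95% Clopper-Pearson interval 4.49 to 5.29) and 3.61% of those of TLR9agonist_LW (3.30 to 3.94), a log2 ratio of -0.43 (95% interval -0.61 to -0.25). With every cell thinned to 1500 UMIs and a gate scaled to that depth, the shares were 5.97% and 3.68%. The endothelial gate (at least 3 UMIs of Pecam1 and Cdh5) held 605 and 452 cells, so there were 0.922 mural-gated cells per endothelial-gated cell in WT_LW and 1.06 in TLR9agonist_LW. The log2 ratio of these, 0.19, had an interval from -0.05 to 0.44 that includes 0. Mural and endothelial shares were thus both lower in TLR9agonist_LW, in which the fibroblast gate (at least 2 UMIs of Pdgfra and at least 5 of Col1a1 and Col1a2 together, with Rgs5 under 5) held 1062 cells against 329 in WT_LW.

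Within the gate, the median gene had a log2 ratio of TLR9agonist_LW over WT_LW of -0.41 on the CPM scale, so every log2 ratio below is given relative to the median gene of the 8105 genes with at least 100 UMIs over both libraries. A gene is called higher or lower when it lies past 1.5-fold on that scale. Of all genes tested, 15.4% were called higher in TLR9agonist_LW and 9.17% lower, and past 2-fold these shares were 7.05% and 1.36%. These percentages are the background for the counts of each gene group, and they are counts past a fold, not of a test.

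Of the 17 gene groups, secreted inflammatory factors differed most between the libraries in the mural-gated cells. Of the 32 chemokine, cytokine and adhesion genes tested, 25 were higher in TLR9agonist_LW, 0 were lower and 7 lay within 1.5-fold, with a median log2 ratio of 1.86. The UMI minimum for testing was summed over both libraries, and the list was chosen with earlier results of these data known. Genes with few UMIs in WT_LW, such as Cxcl5 (36 against 2390) and Csf3 (14 against 888), passed this minimum through TLR9agonist_LW. Such genes could only be called higher, so the count and the median lean to that side. Among the 17 of the 32 tested genes that mural cells held above the other cells of both libraries, the median was 1.10 relative to the median of all genes so held. Cxcl1, which attracts neutrophils through Cxcr2, was at 1973 (WT_LW) against 14112 CPM (TLR9agonist_LW), a log2 ratio of 3.25 (95% interval 3.22 to 3.28). Ccl2, which attracts monocytes through Ccr2, was at 1345 (WT_LW) against 11715 CPM (TLR9agonist_LW), a log2 ratio of 3.53 (95% interval 3.50 to 3.57). Both were also well above the T cell-gated level, which was 159 and 513 CPM for Cxcl1 and 118 and 607 CPM for Ccl2. Il6, the cytokine of the acute phase response, was at 267 (WT_LW) against 2608 CPM (TLR9agonist_LW), with a log2 ratio of 3.70 (95% interval 3.62 to 3.78) and a T cell-gated level of 8.85 and 56.1 CPM. Together, Cxcl1, Ccl2, Cxcl2, Ccl7 and Il6 made up 0.425% of the UMIs of the mural-gated cells in WT_LW and 3.85% in TLR9agonist_LW.

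**Figure D1:**
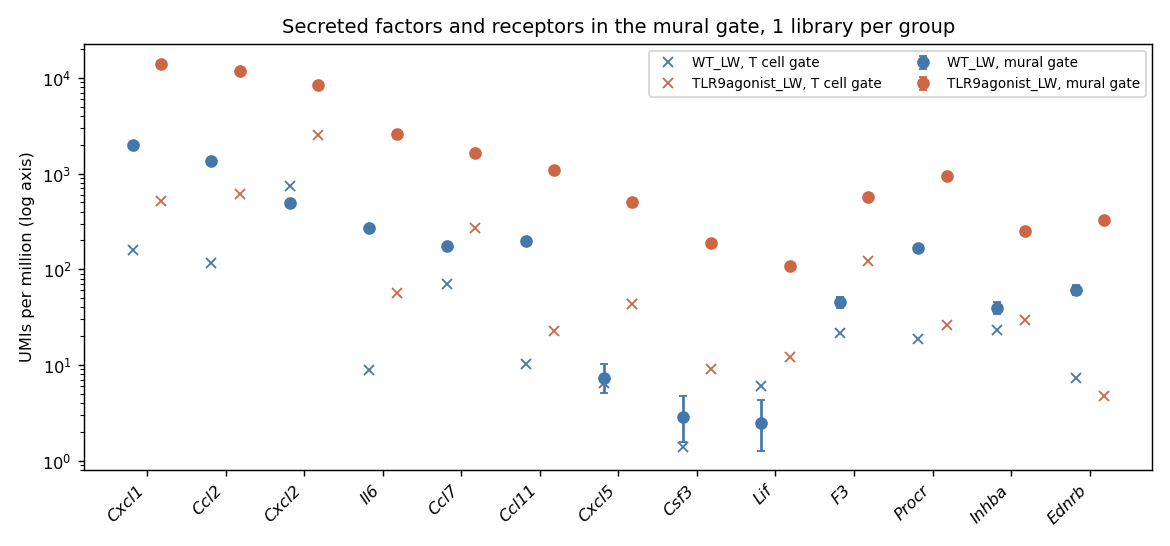
Level (CPM, log axis) of 13 genes of secreted factors and receptors in mural-gated cells (circles, with exact Poisson 95% intervals) and in T cell-gated cells (crosses), with WT_LW in blue and TLR9agonist_LW in red and 1 library per group. Each circle of TLR9agonist_LW lies above the circle of WT_LW and above its own T cell-gated level, while Cxcl2 and Lif in WT_LW lie below theirs.

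Cxcl1, Cxcl2 and Il6 lie on the same chromosome, and each has a match to the NF-κB consensus close upstream of its start. The stretches shown are the last 120 bases before the start of the gene in the RefSeq promoter table (build GRCm38.p6), on the plus strand, in which capitals mark the bases that match the NF-κB consensus. They are shown because they are 3 of the 4 genes of the group for which a match was found. Cxcl5, Csf3 and Lif had larger ratios.
Cxcl1, chr5:90891125-90891244: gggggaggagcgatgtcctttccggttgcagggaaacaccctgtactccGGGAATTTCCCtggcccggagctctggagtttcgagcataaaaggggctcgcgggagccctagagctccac
Cxcl2, chr5:90903779-90903898: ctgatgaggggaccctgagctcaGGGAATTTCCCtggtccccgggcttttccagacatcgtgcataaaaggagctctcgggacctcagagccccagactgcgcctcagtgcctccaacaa
Il6, chr5:30012994-30013113: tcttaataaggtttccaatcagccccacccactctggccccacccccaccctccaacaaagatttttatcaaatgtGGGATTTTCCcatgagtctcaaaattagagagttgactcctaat
The match began 71 bases before the start of Cxcl1, 97 before that of Cxcl2 and 44 before that of Il6, and the capitals of Cxcl1 and Cxcl2 are the same letters. Both strands of the 300-base promoter window were searched for the NF-κB consensus. It was matched in 4 of the 23 promoters found for the chemokine, cytokine and adhesion genes (17.4%; Cxcl1, Cxcl2, Il6 and Csf1), in 8 of 20 for the NF-κB feedback and TLR signalling genes (40.0%), in 3 of 25 for the contractile genes (12.0%), and in 1178 of all 27025 promoters (4.36%). Promoters of the other 11 chemokine, cytokine and adhesion genes, among them Ccl2, Ccl7, Cxcl5 and Csf3, were not used here. A match is a description of the letters and not of binding.

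Cxcl2, another Cxcr2 ligand, was at 496 (WT_LW) against 8477 CPM (TLR9agonist_LW), but the T cell-gated level was 746 and 2513 CPM, so only in TLR9agonist_LW was the mural level above it. Ccl7, another Ccr2 ligand, was at 173 and 1631 CPM against 70.4 and 267 CPM in T cell-gated cells. Ccl11, the eotaxin that attracts eosinophils through Ccr3, was at 197 and 1082 CPM against 10.2 and 22.7 CPM, with a log2 ratio of 2.87. Ccl11 was thus low in T cell-gated cells of both libraries. The largest ratios of the group belonged to genes nearly silent in WT_LW. Cxcl5 had 36 UMIs (WT_LW) against 2390 (TLR9agonist_LW), a log2 ratio of 6.51 (95% interval 6.04 to 7.03). Csf3, granulocyte colony-stimulating factor, had 14 UMIs (WT_LW) against 888 (TLR9agonist_LW), a log2 ratio of 6.44 (95% interval 5.69 to 7.32). Lif, of the Il6 family, had 12 UMIs (WT_LW) against 509 (TLR9agonist_LW), a log2 ratio of 5.86 (95% interval 5.05 to 6.83). Of the receptors for such signals, Il1r1, the receptor of interleukin-1, was at 215 and 332 CPM, a log2 ratio of 1.04.

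These factors were spread over the cells to unequal degrees. With cells thinned to 1500 UMIs, at least 3 of the 5 genes Cxcl1, Ccl2, Cxcl2, Ccl7 and Il6 were detected in 24.2% of the cells of WT_LW and in 77.1% of those of TLR9agonist_LW, and none of the 5 in 27.9% and 3.57%. Il6 was detected in 16% and 66.8% of the thinned mural cells and in 0.92% and 5.56% of the thinned T cells. Among thinned T cells, at least 3 of the 5 genes were detected in 1.43% (WT_LW) and 9.84% (TLR9agonist_LW), and Cxcl2 in 27.7% and 46.5%, so the background differed between the genes and the libraries. The median Cxcl1 level per cell was 5.14 (0.82 to 23.5) UMIs per 10000 in WT_LW and 94.2 (21.1 to 253) in TLR9agonist_LW, with the quartiles in parentheses. The 10% of cells with most Cxcl1 held 56% and 35.2% of its UMIs, while for Cxcl5 they held 97.4% in TLR9agonist_LW. Cxcl5 was detected in 0.743% and 11.6% of the thinned cells, and Csf3 in 0.558% and 8.61%. Without thinning, they were detected in 18.03% and 16.6% of the cells of TLR9agonist_LW, so these shares depended on depth.

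**Figure D2:**
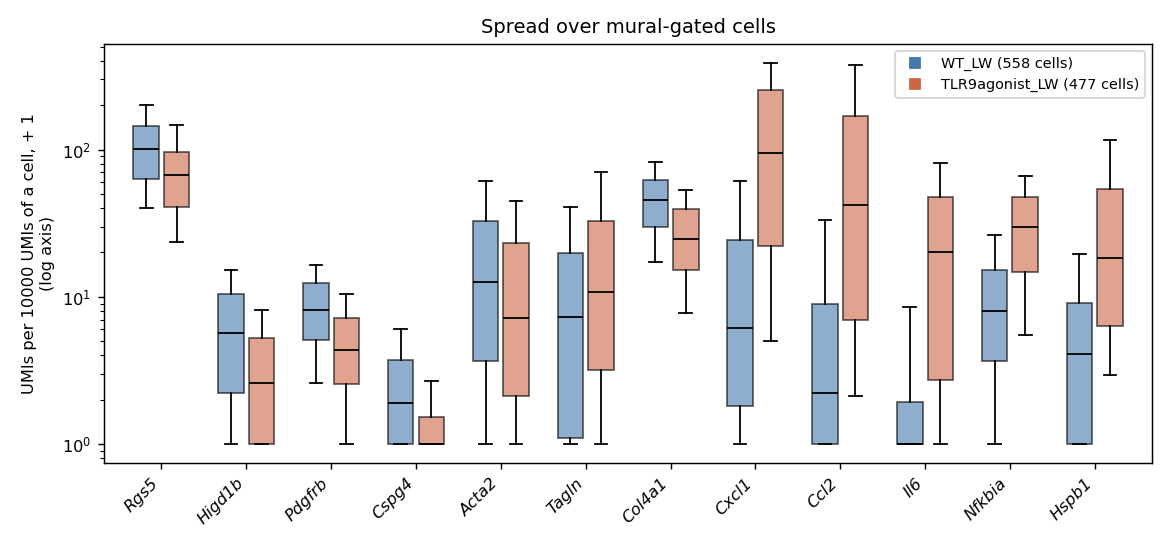
UMIs per 10000 UMIs of a cell, plus 1 (log axis), over the 558 mural-gated cells of WT_LW (blue) and the 477 of TLR9agonist_LW (red); boxes run from the lower to the upper quartile with the median as a line, and whiskers from the 10th to the 90th percentile. Cxcl1, Ccl2, Il6, Nfkbia and Hspb1 sit higher over most cells of TLR9agonist_LW, while Rgs5, Higd1b, Pdgfrb, Cspg4 and Col4a1 sit lower.

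Other inflammatory members of the group lay near or below the T cell-gated level. Of the 25 genes called higher, 20 were above the T cell-gated level in TLR9agonist_LW and 17 stood at more than 2 times that level, and Ccl8, Cxcl16, Icam1, Mif and Ptgs2 were not above it. Ptgs2, the inducible cyclooxygenase, was at 23.2 and 182 CPM with a T cell-gated level of 75.1 and 206 CPM. Il33, an alarmin, was at 6.31 and 106 CPM against 11.4 and 96.2 CPM, and Vcam1, an adhesion molecule for leukocytes, was at 19.1 and 107 CPM against 20.9 and 76.7 CPM. Il34, a ligand of the macrophage receptor Csf1r, and Il6st, the signalling chain of the Il6 receptor, had the lowest ratios of the group, -0.33 and -0.21, and both lay within 1.5-fold.

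Genes that mural cells held above all other cells of their library gave further large differences. F3, tissue factor, which starts coagulation, had 221 UMIs (WT_LW) against 2708 (TLR9agonist_LW), a log2 ratio of 4.07 (95% interval 3.87 to 4.28). Procr, the receptor of protein C on the anticoagulant side, had 822 UMIs (WT_LW) against 4470 (TLR9agonist_LW), a log2 ratio of 2.90 (95% interval 2.79 to 3.01). A starter and a restrainer of coagulation were therefore both higher. Among T cell-gated cells the levels were 21.6 and 123 CPM for F3 and 18.8 and 26.4 CPM for Procr. Gm16685, a gene with no assigned function, was also among the highest, with a log2 ratio of 3.38.

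NF-κB feedback and TLR signalling genes were higher in 13 of 18 tested and lower in 0, with a median log2 ratio of 1.14. Nfkbia, the inhibitor that NF-κB itself induces, was at 1129 (WT_LW) against 3218 CPM (TLR9agonist_LW), a log2 ratio of 1.92. Sod2, the mitochondrial superoxide dismutase, was at 131 and 438 CPM, a log2 ratio of 2.16. Tnip1, a partner of the deubiquitinase Tnfaip3, was at 45.4 and 137 CPM, and Tnfaip3 at 247 and 569 CPM. Sod2 and Tnfaip2 stood at more than 2 times the T cell-gated level in TLR9agonist_LW. T cells are known to express many genes of this group themselves, and 8 of the 13 genes were not above that level, among them Tnfaip3 with 779 and 837 CPM. The adaptor Myd88 was at 46 and 32.6 CPM and the kinase Irak1 at 50.3 and 30.7 CPM, and both lay within 1.5-fold.

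No UMI of Tlr9, the receptor of the agonist, was found in the mural-gated cells of either library, where 3 UMIs, the limit that a count of 0 allows, would be 0.611 CPM in WT_LW and 0.631 CPM in TLR9agonist_LW. At this depth Tlr9 was therefore not detectable in these cells. Tlr2, Tlr3 and Tlr4 had 32 and 52, 35 and 13, and 20 and 33 UMIs, too few for the 100 UMIs of the comparison.

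Interferon response and MHC class I genes were higher in 13 of 28 tested and lower in 0, with a median log2 ratio of 0.56. Isg15, a ubiquitin-like protein induced by interferon, was at 76.2 and 195 CPM, a log2 ratio of 1.77. Cxcl9, a T cell chemokine induced by interferon-γ, was at 18.1 and 80.8 CPM against 20.6 and 30.1 CPM in T cell-gated cells. B2m, the light chain of MHC class I, had a log2 ratio of 0.21 and a plain CPM ratio of -0.20, so its direction depended on the scale. Ifitm3, an antiviral membrane protein, was at 1945 and 2889 CPM, a log2 ratio of 0.98.

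Immediate early and dissociation stress genes were higher in 15 of 29 tested and lower in 0, with a median log2 ratio of 0.84. Hspb1, a small heat shock protein, was at 734 (WT_LW) against 3884 CPM (TLR9agonist_LW), and Hspa1a, an inducible Hsp70, at 1559 and 4975 CPM, with log2 ratios of 2.82 and 2.09. Fosl1, a member of the Fos family, had 46 UMIs (WT_LW) against 245 (TLR9agonist_LW), the highest log2 ratio of the group at 2.87, with a T cell-gated level of 9.98 and 26.9 CPM. Fos and Fosb, immediate early genes of the same family, had log2 ratios of -0.38 and -0.49, within 1.5-fold. Over the other settings on this scale, Fos ran from -1.93 to -0.26 and Fosb from -1.84 to -0.45. In the cells at or below the pooled median of Hspa1a, Hspa1b and Hspb1, a choice made after the values were seen that left 378 cells of WT_LW and 140 of TLR9agonist_LW, the median log2 ratio of the chemokine, cytokine and adhesion genes was 2.08. The genes that set this cut themselves differed between the libraries, so it kept unequal parts of them, and the part of stress in the other differences was not tested.

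**Figure D3:**
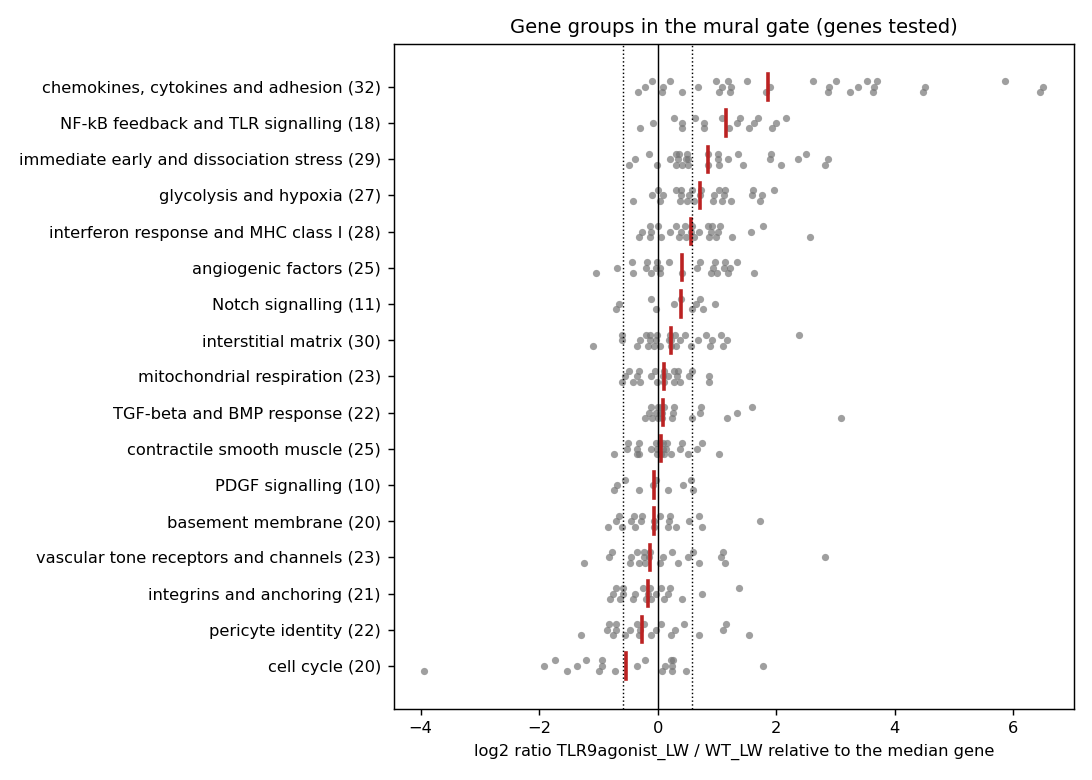
Log2 ratio of TLR9agonist_LW over WT_LW relative to the median gene for every tested gene (grey points) of 17 gene groups in mural-gated cells, with the group median as a red bar, the number of genes tested in parentheses and dotted lines at 1.5-fold. The chemokine group has the highest median, 1.86, and reaches 6.51, while the cell cycle group has the lowest median, -0.53.

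Glycolysis and hypoxia genes were higher in 15 of 27 tested and lower in 0, with a median log2 ratio of 0.71, or 0.30 on the plain CPM scale. Slc2a1, the main glucose transporter, was at 34.6 and 87.9 CPM, and Hk2, the inducible hexokinase, at 54.8 and 137 CPM. Ndrg1, a hypoxia-induced gene, was at 60.7 and 179 CPM against 111 and 189 CPM in T cell-gated cells. Of the 15 genes, 8 were not above the T cell-gated level in TLR9agonist_LW, Ndrg1, Hif1a and Gapdh among them. Mitochondrial respiration genes lay within 1.5-fold in 20 of 23 tested, with a median log2 ratio of 0.11.

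Pericyte identity genes did not move as a block. Of 22 tested, 6 were lower, 4 were higher and 12 lay within 1.5-fold, with a median log2 ratio of -0.26. Cspg4, the NG2 proteoglycan, had 802 UMIs (WT_LW) against 237 (TLR9agonist_LW), a log2 ratio of -1.30 (95% interval -1.52 to -1.09), and was detected in 21.2% and 4.62% of the thinned cells. Higd1b had a log2 ratio of -0.86 (95% interval -0.95 to -0.76), and Mcam, the adhesion molecule CD146, of -0.70 (95% interval -0.81 to -0.59). Cspg4, Higd1b and Mcam, all common markers of pericytes, were thus on the lower side. Gucy1a3, a subunit of the nitric oxide receptor soluble guanylate cyclase, was at 436 and 185 CPM, a log2 ratio of -0.83. The transcription factors Ebf2 and Heyl had log2 ratios of -0.75 and -0.71. On the other side, Rgs16 and Rgs4, regulators of G protein signalling like Rgs5, had log2 ratios of 1.54 (95% interval 1.48 to 1.60) and 1.11, against -0.28 for Rgs5 itself. S1pr3, a receptor of sphingosine 1-phosphate, was at 152 and 255 CPM, and Vtn, vitronectin, at 102 and 124 CPM, and both were called higher. Ebf1 had a log2 ratio of 0.23 and a plain CPM ratio of -0.18.

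Contractile genes lay within 1.5-fold in 21 of 25 tested, with a median log2 ratio of 0.06, or -0.35 on the plain CPM scale. Acta2 was at 2706 (WT_LW) against 1606 CPM (TLR9agonist_LW), a log2 ratio of -0.34 (95% interval -0.38 to -0.30). Tagln, the actin-binding transgelin, was at 1814 (WT_LW) against 2287 CPM (TLR9agonist_LW), a log2 ratio of 0.75 (95% interval 0.71 to 0.79). Acta2 and Tagln, both widely used as markers of contractile cells, thus had opposite signs. Synpo2, a protein of the Z line and of actin bundles, was at 181 and 278 CPM, a log2 ratio of 1.03, and Csrp1 at 266 and 317 CPM. Lmod1, leiomodin, which nucleates actin in smooth muscle, was the 1 gene called lower, at 139 and 62.2 CPM.

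Vascular tone receptors and channels were higher in 6 of 23 tested and lower in 3, with a median log2 ratio of -0.13. Ednrb, the endothelin receptor type B, had 300 UMIs (WT_LW) against 1554 (TLR9agonist_LW), or 61.1 and 327 CPM, a log2 ratio of 2.83 (95% interval 2.65 to 3.01). Its T cell-gated level was 7.3 and 4.68 CPM, and it was detected in 6.88% and 27.1% of the thinned mural cells. Ednrb thus stood apart from the rest of its group. Ptgir, the prostacyclin receptor, was at 55 and 86.9 CPM, a log2 ratio of 1.07. Of the nitric oxide pathway, Pde5a, which degrades cyclic GMP, was at 273 and 120.5 CPM, a log2 ratio of -0.77. Gucy1a3 and Pde5a, the genes for making and for degrading cyclic GMP, were therefore both lower.

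Notch genes were higher in 4 of 11 tested and lower in 2, with a median log2 ratio of 0.39. The Notch targets Heyl and Hey2, typical of mural cells, were at 78.6 and 36.2 CPM and at 25.1 and 12 CPM, and were both called lower. Nrarp, a feedback inhibitor, was at 93.7 and 119 CPM, and Rbpj, the DNA-binding partner of Notch, at 82.7 and 122 CPM against 194 and 446 CPM in T cell-gated cells. The Notch targets therefore split, and Hes1 and Jag1, at log2 ratios of 0.39 and 0.28, changed sign on the plain CPM scale (-0.02 and -0.13).

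PDGF genes were higher in 1 of 10 tested and lower in 2, with a median log2 ratio of -0.06. Pdgfrb, the receptor, was at 712 (WT_LW) against 367 CPM (TLR9agonist_LW), a log2 ratio of -0.55 (95% interval -0.63 to -0.46), just within 1.5-fold. Pdgfa, a ligand, was at 485 and 539 CPM, a log2 ratio of 0.57, also within 1.5-fold. The 1 gene called higher was Grb2, with a log2 ratio of 0.60, and it was not above the T cell-gated level in TLR9agonist_LW. Nrp1, a co-receptor, was at 246 and 114 CPM and Plcg1, a phospholipase downstream of the receptor, at 23.2 and 10.5 CPM, and these were the genes called lower.

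Angiogenic factors were higher in 12 of 25 tested and lower in 2, with a median log2 ratio of 0.41, or -0.16 in the cells low in heat shock genes. Thbs1, thrombospondin-1, which restrains vessel growth, was at 357 (WT_LW) against 676 CPM (TLR9agonist_LW), a log2 ratio of 1.33. Angptl4, a lipase inhibitor induced by hypoxia, was at 17.5 and 40.6 CPM, and Cxcl12, which retains and attracts Cxcr4-bearing cells, at 23.6 and 41.4 CPM. Vegfa was at 23 and 37.6 CPM against 33.3 and 34.9 CPM in T cell-gated cells. Of the 12 genes, 4 stood at more than 2 times the T cell-gated level. Sema5a, a guidance molecule, was at 264 and 96.5 CPM, a log2 ratio of -1.04. Angpt1, the Tie2 ligand that mural cells give to the endothelium, was at 42.4 and 32.6 CPM, a log2 ratio of 0.03.

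Basement membrane genes were lower in 4 of 20 tested and higher in 3, with a median log2 ratio of -0.06. Col4a1, the main collagen of the basement membrane, was at 4576 (WT_LW) against 2525 CPM (TLR9agonist_LW), a log2 ratio of -0.45 (95% interval -0.48 to -0.41). Nid2, nidogen-2, was at 93.7 and 39.3 CPM, Col15a1 at 233 and 107 CPM, Lama4 at 278 and 133 CPM and Lamb1 at 204 and 101 CPM. These linkers and laminin chains of the vessel wall were the 4 called lower. Of the 3 called higher, Fbln5 and Fbln2, with log2 ratios of 1.73 and 0.75, were not above the T cell-gated level in TLR9agonist_LW. Among integrins and anchoring genes, 5 of 21 were lower and 2 higher, with a median of -0.16. The 2 called higher were Gja1, the gene of a connexin, with a log2 ratio of 1.37, and Cdh13, T-cadherin, with 0.75. Gja1 stood at 30.8 and 59.9 CPM against 47.8 and 88.8 CPM in T cell-gated cells. Of those called lower, Gjc1, a connexin that couples mural cells, was at 474 and 211 CPM, a log2 ratio of -0.75, and Itga6, a laminin receptor, had the lowest, -0.81. Itga1, a collagen receptor, was at 462 and 259 CPM, within 1.5-fold.

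Interstitial matrix genes gave a mixed picture. Of 30 tested, 8 were higher and 3 lower, with a median log2 ratio of 0.22, or -0.19 on the plain CPM scale. Mgp, matrix Gla protein, an inhibitor of calcification in the vessel wall, had 6476 UMIs (WT_LW) against 2201 (TLR9agonist_LW), a log2 ratio of -1.10 (95% interval -1.17 to -1.03). Col5a3, a collagen V chain, was at 884 and 436 CPM. Mgp and Col5a3 were far above the T cell-gated level (48.5 and 34.8 CPM for Mgp). Of the 8 genes called higher, 3 were above the T cell-gated level in TLR9agonist_LW. Col1a1 was at 3603 and 4791 CPM against 1920.5 and 5012 CPM in T cell-gated cells, and Mfap4, a microfibril protein, at 111 and 438 CPM against 102 and 569 CPM. In the cells low in heat shock genes, the median of the group was -0.43 and the log2 ratio of Col1a1 was -0.26. The 5 genes called higher but not above that level were Col1a1, Col1a2, Dcn, Lum and Mfap4.

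TGF-β and BMP response genes were higher in 6 of 22 tested and lower in 0, with a median log2 ratio of 0.10, or -0.32 on the plain CPM scale. Inhba, which encodes the subunit of activin A, had 195 UMIs (WT_LW) against 1205 (TLR9agonist_LW), a log2 ratio of 3.08 (95% interval 2.87 to 3.31). Id3, an inhibitor of differentiation factors and a BMP target, was at 567 and 1079 CPM, and Smad7, an inhibitory Smad, at 131 and 297 CPM. Smad7 stood at 325 and 228 CPM in T cell-gated cells, and Inhba at 23.2 and 29.7 CPM. Ctgf and Cyr61, matricellular targets, had log2 ratios of -0.22 and 0.08, within 1.5-fold.

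Cell cycle genes were lower in 10 of 20 tested and higher in 1, with a median log2 ratio of -0.53. Cenpf, a kinetochore protein of dividing cells, had 252 UMIs (WT_LW) against 12 (TLR9agonist_LW), a log2 ratio of -3.94 (95% interval -4.91 to -3.10). Mki67, the proliferation marker, was at 57.2 and 16.8 CPM, and Ccnb2, a mitotic cyclin, at 21.2 and 4.21 CPM. Their T cell-gated levels were 50.9 and 15.7 CPM for Cenpf and 143 and 55.8 CPM for Mki67, near or above the mural level. Cells with at least 5 UMIs over 10 mitotic genes were 26 in WT_LW (4.66%, interval 3.07 to 6.75) and 12 in TLR9agonist_LW (2.52%, 1.31 to 4.35), and these intervals overlap. Cdkn1a, the cell cycle inhibitor p21, was the gene called higher, at 122 and 313 CPM.

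Over all genes with at least 200 UMIs that mural cells held above the other cells of both libraries, the lowest ratio was that of Gm12216, at -1.85. Nes, nestin, an intermediate filament of pericytes and progenitors, had 858 UMIs (WT_LW) against 224 (TLR9agonist_LW), a log2 ratio of -1.48 (95% interval -1.70 to -1.27). Sned1, a matrix protein, was at 47.7 and 11.1 CPM, Egflam, a matrix protein that binds dystroglycan, at 108 and 33.9 CPM, and Ndst3, an enzyme of heparan sulfate sulfation, at 68.4 and 16.4 CPM. Fhod1, a formin of actin bundles, was at 58.5 and 16.8 CPM, and Mxd4, a partner of Max that opposes Myc, at 245 and 79.1 CPM. Klhl23 and Gm16586 had log2 ratios of -1.31 and -1.27. Each of these was at least 2-fold below WT_LW relative to the median gene.

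Markers of other cell types differed between the libraries in the mural gate and in the T cell gate alike. The 10 keratinocyte markers summed to 1517 and 3228 CPM in mural-gated cells and to 2322 and 5658 CPM in T cell-gated cells, and the 10 neutrophil and mast cell markers to 136 and 2193 against 412 and 3514 CPM. The 10 fibroblast markers summed to 4969 and 6817 CPM, against 2996 and 7310 CPM. These 3 lists were thus at or below the T cell-gated level, except for fibroblast markers in WT_LW, and their part in the differences between the libraries was not tested. Of single genes, S100a9, a neutrophil protein, was at 33.4 and 1120.2 CPM against 157 and 1738 CPM, and Krt10, a keratin of the upper epidermis, at 108 and 632 CPM against 397 and 988 CPM. Over all genes, the highest ratio was that of Sprr2d, a cornified envelope protein, at 2.24 and 245 CPM against 16.2 and 307 CPM. Csf2, the granulocyte and macrophage factor, was at 2.24 and 114 CPM against 33.2 and 97.4 CPM. Beside cell cycle genes, the lowest ratios over all genes were those of Gm26870 (-5.29), Krt79 (-2.15) and Cst6 (-1.92), which were also present in T cell-gated cells, and Cst6 stood at 1.19 when cells with genes of other lineages were left out, and at 1.14 in cells low in keratinocyte markers.

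Of the remaining marker lists, the 10 endothelial genes summed to 429 and 417 CPM (77.8 and 54.7 in T cell-gated cells). The 8 Schwann cell genes summed to 211 and 210.1 CPM (318 and 192 in T cell-gated cells). The 10 macrophage and dendritic cell genes summed to 516 and 292 CPM, far below the 4214 and 2067 CPM of T cell-gated cells. The 10 T and NK cell genes summed to 70.7 and 77.4 CPM, against 3647 and 2790 CPM. The 10 skeletal and arrector muscle genes summed to 201 and 146 CPM (21.9 and 99.7 in T cell-gated cells), with Myh4 and Myog at 0 in both libraries and Ckm at 0 in TLR9agonist_LW. Retnlg, a neutrophil gene, was at 0 in WT_LW, and Ptprc was at 0 by the gate. In the cells at or below the pooled median of keratinocyte markers, chosen after the values were seen (433 and 85 cells), the median log2 ratio of the chemokine, cytokine and adhesion genes was 1.76 and that of the interstitial matrix genes was 0.97. This cut, too, kept unequal parts of the libraries, since the markers that set it differed between them, and the part of RNA from other cells in the differences was not tested.

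The mural-gated cells ran from a Myh11 side to a Kcnj8/Abcc9 side. Cells with more UMIs of Myh11 than of Kcnj8 and Abcc9 together made up 30.5% of WT_LW (170 cells, interval 26.7 to 34.5) and 35.2% of TLR9agonist_LW (168 cells, 30.9 to 39.7). Those with more of Kcnj8 and Abcc9 made up 61.3% (342 cells) and 57.4% (274 cells), and the rest were ties. The cut is a point on a range and not a border of types, as 123 and 115 cells lay within 1 UMI of it. The intervals of the Myh11 side overlapped, and with 1 library per group a difference of the shares was not tested.

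Contractile genes followed the Myh11 side in both libraries. Of 22 tested, 16 were higher on the Myh11 side in WT_LW and 17 in TLR9agonist_LW, with median log2 ratios of 0.95 and 1.19, where 4.22% and 6.04% of all genes were higher. Acta2 was at 4759 CPM on the Myh11 side and 1593 CPM on the Kcnj8/Abcc9 side of WT_LW, and at 2885 and 832 CPM in TLR9agonist_LW. Tagln was at 3407 and 957 CPM in WT_LW and at 4139 and 1163 CPM in TLR9agonist_LW. The sides thus differed in the same direction in both libraries for these genes. Pericyte identity genes were lower on the Myh11 side in 7 of 21 tested in WT_LW (median -0.44) and in 4 of 21 in TLR9agonist_LW (median -0.09), where 5.16% and 7.34% of all genes were lower. Higd1b was at 432 and 753 CPM on the Myh11 and the Kcnj8/Abcc9 side of WT_LW, and at 281 and 265 CPM in TLR9agonist_LW. In TLR9agonist_LW, Higd1b was therefore at a like level on both sides.

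Chemokine, cytokine and adhesion genes were higher in TLR9agonist_LW on both sides, in 23 of 29 tested on the Myh11 side (median 1.47, with 12.9% of all genes higher and 7.91% lower) and in 24 of 31 on the Kcnj8/Abcc9 side (median 1.77, with 16.8% higher and 10.8% lower). Cxcl1 was at 1513 and 9372 CPM in WT_LW and TLR9agonist_LW on the Myh11 side, and at 2197 and 16051 CPM on the Kcnj8/Abcc9 side. Il6 was at 212 and 1951 CPM on the Myh11 side and at 308 and 2869.6 CPM on the Kcnj8/Abcc9 side. Within TLR9agonist_LW, 15 of 31 genes of the group were lower on the Myh11 side, with a median of -0.54, against 6 of 24 in WT_LW, with a median of -0.33. On the plain CPM scale, the log2 ratios of the Myh11 over the Kcnj8/Abcc9 side in WT_LW and TLR9agonist_LW were -0.54 and -0.78 for Cxcl1. They were -0.73 and -0.75 for Ccl2, and -0.54 and -0.56 for Il6. The Kcnj8/Abcc9 side thus held more of these 3 RNAs in both libraries. In TLR9agonist_LW, Krt10 and S100a9 were also higher on that side (453 against 778 CPM and 644 against 1474 CPM), and their part in the result was not tested.

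**Figure D4:**
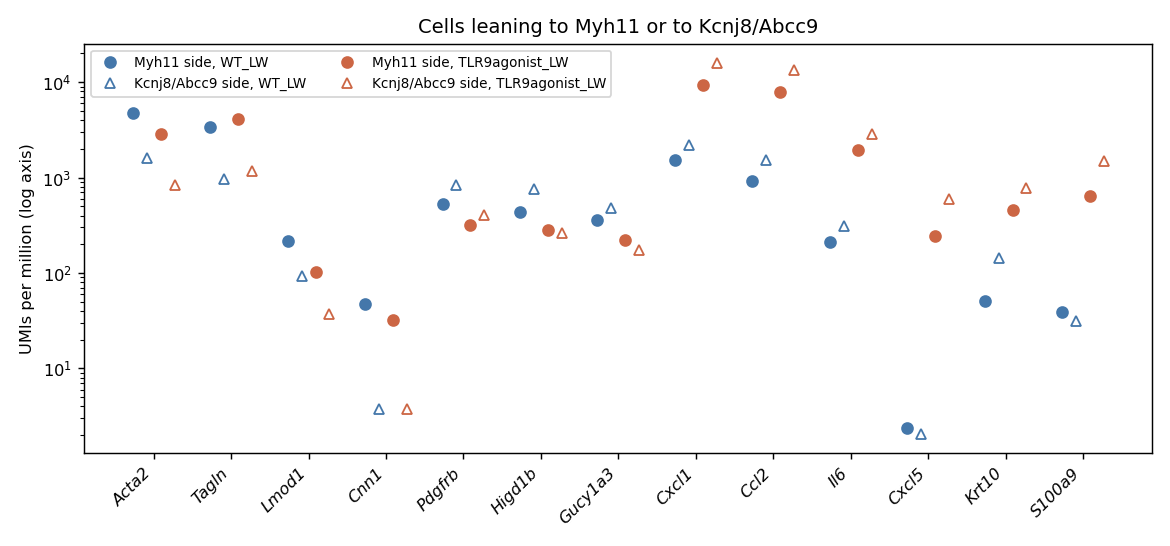
Level (CPM, log axis) of 13 genes in mural-gated cells that lean to Myh11 (filled circles) or to Kcnj8 and Abcc9 (open triangles), in WT_LW (blue) and TLR9agonist_LW (red), 1 library per group. Acta2, Tagln, Lmod1 and Cnn1 are higher on the Myh11 side in both libraries, while Cxcl1, Ccl2 and Il6 are higher on the Kcnj8/Abcc9 side in both.

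The same genes were set beside those of 2 neighbouring cell types, each relative to the median gene of its own gate (log2 ratios of -0.27 in the fibroblast and -0.39 in the endothelial gate). Of all genes tested there, 12.9% were higher and 7.88% lower in the fibroblast gate, and 15.7% and 11.6% in the endothelial gate. The chemokine, cytokine and adhesion genes showed medians of 1.86 (mural gate, 32 genes tested), 1.09 (fibroblast gate, 32 genes) and 1.76 (endothelial gate, 27 genes), so the medians were above 0 in all 3. Genes tested in the mural gate but under 100 UMIs in another gate were left out of that gate's median, so the medians need not cover the same genes. Cxcl1 had log2 ratios of 3.25 in the mural, 0.72 in the fibroblast and 4.30 in the endothelial gate, and Il6 had log2 ratios of 3.70 in the mural, 3.19 in the fibroblast and 3.92 in the endothelial gate. Their levels in TLR9agonist_LW were 14112 CPM of Cxcl1 in the mural, 2269.9 in the fibroblast and 3650.3 in the endothelial gate, and 2608, 245 and 602 CPM of Il6. The mural gate thus held the highest level of both. Other genes went apart. Ccl11 had log2 ratios of 2.87 in the mural, 0.80 in the fibroblast and -0.53 in the endothelial gate, and Cxcl5 had log2 ratios of 6.51 in the mural, 1.48 in the fibroblast and -0.18 in the endothelial gate. Procr had log2 ratios of 2.90 in the mural, 1.13 in the fibroblast and 0.24 in the endothelial gate. Mgp had log2 ratios of -1.10 in the mural, 0.49 in the fibroblast and -0.38 in the endothelial gate. With 1 library per group these differences between gates were not tested. Glycolysis and hypoxia genes, with medians of 0.71, -0.06 and 0.88, and cell cycle genes, with -0.53, -0.82 and 0.49, are given as values.

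**Figure D5:**
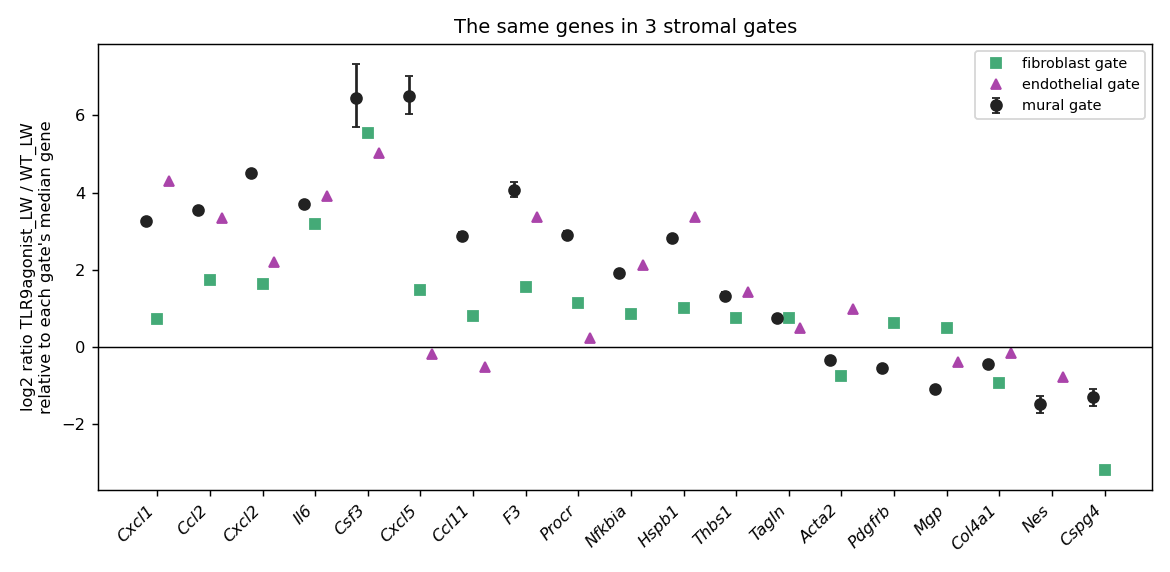
Log2 ratio of TLR9agonist_LW over WT_LW, relative to the median gene of each gate, for 19 genes in the mural (black, with 95% counting intervals), fibroblast (green) and endothelial gate (purple); a marker is left out where that gate held under 100 UMIs. Cxcl1, Ccl2, Cxcl2, Il6, Csf3, F3, Nfkbia and Hspb1 are above 0 in all 3 gates, while Cxcl5 and Ccl11 are above 0 in the mural and fibroblast gates and below 0 in the endothelial gate.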

How the data were processed

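Single-cell RNA was measured in 2 droplet libraries of mouse skin, 1 per group. The deposited files hold UMI counts, not normalized, of each gene in each barcode that the authors' pipeline called as a cell, made with Cell Ranger 4.0.0 per the file headers, and the submitters' processing notes also name fastp, Seurat and the build mm9. Cells were filtered and gated on these counts with Python 3.11.15, numpy 2.4.6, scipy 1.17.1 and pandas 2.3.3, and Scrublet scores came from scanpy 1.11.5. UMIs were summed over the gated cells of a library, since cells are not replicates, and scaled to CPM, with exact 95% Poisson intervals. Log2 ratios carry the exact interval given the summed count and are relative to the median gene. Shares carry Clopper-Pearson intervals. The ratio script was tested on simulated data.

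The gate, the gene lists and the other rules were chosen with earlier results of these data known. The text names the gate markers, in each list the 2 highest, the 2 lowest and the 2 genes with most UMIs, and the extremes over all genes with at least 200 UMIs and at least 10 in each library. Further genes, among them Cxcl2, Ccl7, Ptgs2, Il33, Vcam1 and the Toll-like receptors, were chosen after their values were seen. Beside 13 alternative settings, 2 were added after the data were seen. Some genes, T cell receptor genes among them, are not reported here. Promoters were matched by symbol to RefSeq (GRCm38.p6), without chromosome 18.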

Additional observations from a re-analysis of the deposited data

How the results depend on the processing

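No paired analysis was possible because each group has 1 library. Over 161 results and 15 settings, 227 values that answer a comparison stayed within the limit set for them and 26 moved beyond it. Of the other values, single genes among them, 816 stayed within it, 421 moved beyond it and 5 reversed. With cells thinned to 1500 UMIs, the log2 ratio of the mural share was -0.70. On the plain CPM scale, 575 genes were called higher and 2853 lower, and the medians were -0.35 for contractile, -0.54 for vascular tone, -0.48 for basement membrane, -0.19 for interstitial matrix, -0.32 for TGF-β and BMP, 0.15 for interferon and 0.30 for glycolysis genes. With at least 200 UMIs per gene, 458 were lower. Among genes above the other cells, 457 were higher and 279 lower, and the interstitial matrix median was -0.20. At 2-fold, 571 were higher and 110 lower. With equal weight per cell, the contractile median was 0.21. The settings added after seeing the data kept fewer cells, above all in TLR9agonist_LW. In cells low in heat shock genes, the medians were -0.13 for contractile, -0.33 for vascular tone, -0.16 for angiogenic, -0.43 for interstitial matrix, 1.66 for NF-κB and 0.31 for stress genes. In cells low in keratinocyte markers, they were -0.39 for vascular tone, -0.41 for basement membrane and 0.97 for interstitial matrix genes. The cause of these shifts was not tested. Single genes called in the main comparison changed sign 5 times. Cst6 was at 1.19 without cells that held genes of other lineages and at 1.14 in cells low in keratinocyte markers, where Nrarp was at -0.040, and in cells low in heat shock genes Fbln2 was at -0.22 and Col1a1 at -0.26. Of 138 genes named or ranked, 18 changed sign in some setting. Past 1.5-fold were 96 of the 138, and 4 of those 96 changed sign. The median of the chemokine, cytokine and adhesion genes ran from 1.10 to 2.08 over 11 settings on the median-gene scale, and that of the pericyte identity genes from -0.65 to -0.16. Depth limits what can be said of genes with under 100 UMIs, such as the Toll-like receptors.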
